A study of Mus musculus with 6 samples.

Results

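The genes described here are the matrix metalloproteinases, the ADAMTS proteases with their ADAMTS-like relatives, and the tissue inhibitors of metalloproteinases (TIMPs), chosen by symbol alone from the kidney RNA-seq tables. The symbol rule found 51 of the 24346 genes in each table: 4 Timp genes, 19 Adamts genes, 5 Adamtsl genes and 23 Mmp genes. Of the 51, 10 averaged at least 1 FPKM across all 6 libraries and entered the test, 31 were detected at lower levels and 10 were listed at 0 in all 6 libraries. FPKM counts a gene's fragments per kilobase of transcript, scaled to the number of mapped fragments in the library.

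All 6 kidney samples came from mice that had undergone unilateral nephrectomy (UNX), the removal of 1 kidney. For 1 week all mice ate a diet without serine, and their water held either nothing added (vehicle, 3 libraries) or 0.1% D-serine (3 libraries). Surgery followed, and kidneys were taken 2 days after it. The labels give no strain, sex or age, and they do not say whether each library came from its own mouse, so the p-values measure the spread between these libraries, which may in part be technical. Sham-operated mice were not analysed here.

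Matrix metalloproteinases are zinc enzymes that cut collagens, gelatins, proteoglycans and many cell-surface proteins, and most are made as inactive proenzymes. ADAMTS proteases are secreted relatives that bind matrix through thrombospondin repeats and cut versican, aggrecan, procollagens or von Willebrand factor. The ADAMTS-like proteins share that outer part without a catalytic domain. TIMPs bind the active site of these enzymes and block it, and in kidney the balance of the families is studied for its part in the turnover of basement membrane and interstitial matrix.

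Timp3 dominated the 51 genes and was lower with D-serine. It encodes the TIMP that stays bound to the extracellular matrix and also inhibits ADAM17 and several ADAMTS proteases. Timp3 stood at 585, 578 and 591 FPKM under vehicle against 340.1, 336 and 364 FPKM under D-serine. All 3 D-serine libraries lay far below all 3 vehicle libraries, and the vehicle libraries were nearly level. The means were 585 ± 6.38 and 347 ± 15.3 FPKM (SD, n = 3 each), a 0.593-fold level. The log2 difference, on the scale of log2(FPKM + 1), was -0.75 ± 0.084 (SE), with a limma adjusted p of 0.048 over all 11737 genes tested. It was the 1 gene of the 51 that passed, where 0.0767% of all tested genes passed (0.00852% higher, 0.0682% lower). The call lies at the threshold: it held in 7 of 16 alternative fits and in 1 of the 6 that left out a library, the fit without D-serine replicate 3 (adjusted p = 0.040). The other 5 such fits gave an adjusted p from 0.075 to 0.23. Over all 16 the log2 difference stayed between -0.79 and -0.66. In bulk tissue, fewer cells of a type and less RNA per cell cannot be told apart.

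**Figure D1:**
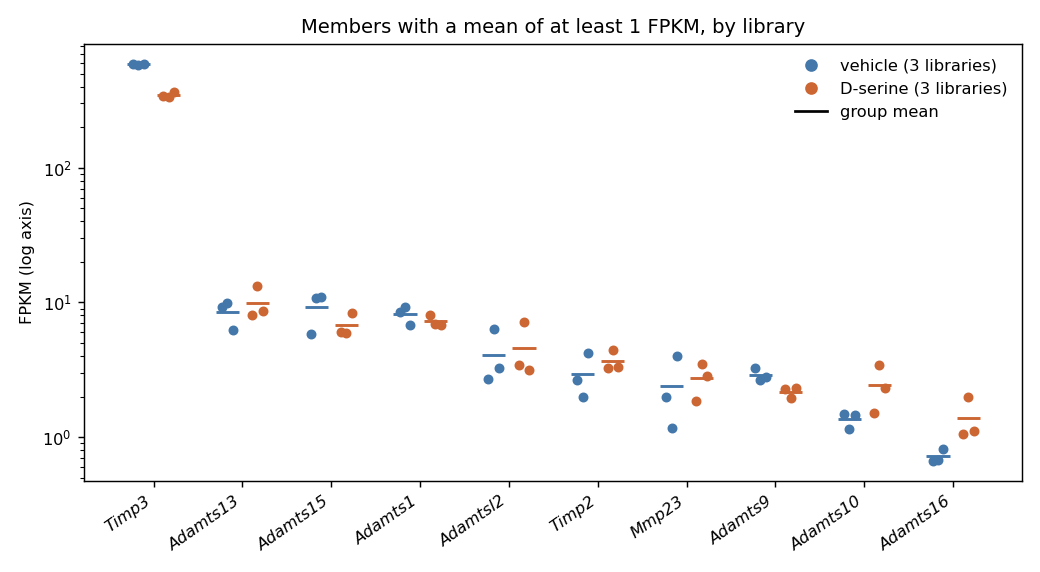
FPKM of the 10 tested genes, on a log axis, with 1 point per library (blue vehicle, orange D-serine, 3 libraries each) and a bar at each group mean. Timp3 lies far above the other genes, and its D-serine libraries (336 to 364 FPKM) sit below its vehicle libraries (578 to 591 FPKM).

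Timp3 made up 92.7% ± 0.671 of the summed FPKM of the 51 genes with vehicle and 87.6% ± 2.0 with D-serine (SD, n = 3 each). By level it ranked between 194 and 228 among all genes of the table in the vehicle libraries and between 347 and 371 in the D-serine libraries. Of 428 tested genes with a vehicle mean of at least 300 FPKM, Timp3 was the 1 that was called lower, and 0 were called higher. This rests on a call at the threshold, and the count called over all genes, 9 here, ran from 2 to 437 in the alternatives. Mep1a, also above 300 FPKM under vehicle, had a log2 difference of -0.76 and did not pass (limma adjusted p = 0.074). The vehicle SD of Timp3 was 1.09% of its mean, while that of the other 9 tested genes ran from 11.2% for Adamts9 to 61.2% for Mmp23. These genes are not of a like level. Timp3 had an estimated 10000 to 21000 fragments in a library, against 99 to 200 for Adamts9 and 12 to 40 for Mmp23, so counting error differs between them.

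On mm10, Timp3 lies on the plus strand of chromosome 10 (86300372 to 86349506), inside the span of Syn3, a synapsin gene on the opposite strand, and exons of the 2 genes share 1733 bases in the annotation. The kit keeps strand, but the sources used here do not say whether fragments were assigned by strand, so reads of the 2 genes may not have been told apart. Syn3 was at 6.23, 5.89 and 6.95 FPKM under vehicle against 4.09, 3.70 and 5.62 FPKM under D-serine. Its groups did not overlap, and its log2 difference of -0.44 did not pass (limma adjusted p = 0.12).

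The other inhibitors were scarce. Timp2, which blocks metalloproteinases and also helps Mmp14 to activate the proenzyme of Mmp2, stood at 2.67, 1.98 and 4.23 FPKM under vehicle against 3.23, 4.41 and 3.34 FPKM under D-serine. The groups overlapped, and the log2 difference was 0.27 with a 95% interval from -0.24 to 0.78 (limma adjusted p = 0.45). It was 0.081 without vehicle replicate 2, 0.15 without D-serine replicate 2 and 0.49 without vehicle replicate 3. Timp1, the soluble inhibitor that injury and inflammation induce, was listed at 0 in 4 libraries, at 0.184 FPKM in vehicle replicate 2 and at 0.199 FPKM in D-serine replicate 3. Corrected for relative depth, these 2 values are the same smallest step, about 1 estimated fragment. Timp4, known best from heart, stood at 0.0877, 0.0918 and 0.0971 FPKM under vehicle against 0.0982, 0.105 and 0.199 FPKM under D-serine. Its groups do not overlap in FPKM, yet after depth correction 5 libraries hold 1 step and D-serine replicate 3 holds 2 steps. A step is worth more FPKM in a shallower library, and the 3 D-serine libraries were the shallowest.

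To show how the start regions of the inhibitor genes differ, the bases before the start sites of Timp1, Timp3 and Timp4 are printed from RefSeq promoters on GRCm38.p6, each on the strand of its gene, with every CpG, the site of DNA methylation, in capitals. The regions are chrX:20869916-20870165 for Timp1, chr10:86300162-86300371 for Timp3, which ends before the annotated first exon, and chr6:115252206-115252455 for Timp4 (minus strand).
Timp1: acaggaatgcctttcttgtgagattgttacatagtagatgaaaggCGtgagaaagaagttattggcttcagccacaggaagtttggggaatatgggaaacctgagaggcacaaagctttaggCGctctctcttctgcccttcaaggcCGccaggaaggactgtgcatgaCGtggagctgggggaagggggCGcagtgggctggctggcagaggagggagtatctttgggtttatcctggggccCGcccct
Timp3: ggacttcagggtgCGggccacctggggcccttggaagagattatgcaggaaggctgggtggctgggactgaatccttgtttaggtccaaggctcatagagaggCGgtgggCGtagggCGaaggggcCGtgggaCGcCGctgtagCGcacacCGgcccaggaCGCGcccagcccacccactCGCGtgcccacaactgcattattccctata
Timp4: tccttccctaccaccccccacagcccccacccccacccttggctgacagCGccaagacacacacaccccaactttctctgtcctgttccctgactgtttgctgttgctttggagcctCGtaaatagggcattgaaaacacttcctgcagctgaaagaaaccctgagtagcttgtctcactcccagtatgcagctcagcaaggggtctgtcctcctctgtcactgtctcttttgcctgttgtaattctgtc
Over the 250 bases before the RefSeq start site, Timp3 holds 18 CpG and 65.6% G and C, Timp2 21 CpG and 68%, Timp1 6 CpG and 54.4%, and Timp4 2 CpG and 53.6%. In the annotation used for positions, the whole Timp2 window and the end of the Timp3 window lie inside the gene. Timp2 is therefore not printed, and the printed part of Timp3 holds 13 of its 18 CpG. Of all upstream windows in the table, 21.7% hold at least as many CpG as that of Timp3, and the median is 6 CpG and 52.4% G and C. The 2 CpG-rich genes, Timp2 and Timp3, were the 2 inhibitors that reached 1 FPKM, yet at far apart levels of 2.96 and 585 FPKM under vehicle. No methylation was measured.

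Among the ADAMTS proteases 6 of 19 genes were tested and 0 passed, with 2 at an unadjusted p under 0.05 in limma, Adamts9 and Adamts16 (27.7% of all tested genes). Adamts16 entered the test only through its D-serine libraries, where it is high, so its place in this count depends on that group. Adamts9 encodes a versican-cutting protease that is also needed for cilium formation, and it lies on chromosome 6 (92772699 to 92943492, mm10, minus strand). It stood at 3.27, 2.65 and 2.80 FPKM under vehicle against 2.26, 1.93 and 2.31 FPKM under D-serine. All 3 D-serine libraries were below the vehicle libraries, and the log2 difference was -0.30 ± 0.12, its SE (limma adjusted p = 0.17). In the annotation Adamts9 shares 1381 and 424 exon bases with A730049H05Rik and Gm15737 on the opposite strand.

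Adamts16, a fibronectin-cutting protease expressed in the developing kidney (chromosome 13, 70727802 to 70841811, minus strand), stood at 0.666, 0.675 and 0.813 FPKM under vehicle against 1.04, 1.99 and 1.11 FPKM under D-serine. Every D-serine library was above every vehicle library, and D-serine replicate 2 was the highest by far. Groups did not overlap for 35.8% of all tested genes. Adamts16 rests on an estimated 25 to 65 fragments in a library, so it carries counting error. Its log2 difference was 0.45 ± 0.19 (limma adjusted p = 0.17), and 0.27 without D-serine replicate 2. Adamts16 reached the minimum of 1 FPKM only through the D-serine libraries, since its vehicle mean was 0.718 FPKM. Adamts10, which works on fibrillin microfibrils (chromosome 17, 33524204 to 33553782, plus strand), stood at 1.49, 1.15 and 1.47 FPKM under vehicle against 1.51, 3.42 and 2.33 FPKM under D-serine. The groups are separated by a narrow gap between D-serine replicate 1 and vehicle replicate 1. Adamts10 rests on an estimated 35 to 91 fragments in a library. Its log2 difference was 0.50 ± 0.21 (limma adjusted p = 0.18), and 0.29 without D-serine replicate 2.

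The 3 other tested ADAMTS genes were the most abundant proteases among the 51 and had overlapping groups. Adamts13, the protease that trims von Willebrand factor, was at 8.44 ± 1.99 FPKM under vehicle against 9.93 ± 2.86 FPKM under D-serine (n = 3 each). Adamts15, a versican-cutting protease, was at 9.18 ± 2.87 and 6.77 ± 1.35 FPKM. Vehicle replicate 1, at 5.87 FPKM, lay below all 3 D-serine libraries, and the other vehicle libraries, at 10.8 and 10.9 FPKM, above them. Adamts1, an injury-inducible versican-cutting protease that is needed for normal development of the kidney and ureter, was at 8.22 ± 1.28 and 7.27 ± 0.730 FPKM. The 95% intervals of these 3 log2 differences ran from -0.32 to 0.72 for Adamts13, from -0.91 to 0.19 for Adamts15 and from -0.46 to 0.16 for Adamts1. Without 1 library the log2 difference ran from -0.0014 to 0.33 for Adamts13 (lowest without D-serine replicate 2), from -0.62 to -0.22 for Adamts15 (-0.62 without vehicle replicate 1, -0.23 and -0.22 without vehicle replicates 2 and 3) and from -0.27 to -0.066 for Adamts1 (-0.27 without vehicle replicate 3, -0.066 without vehicle replicate 2).

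Adamtsl2, whose protein binds microfibrils and the latent form of TGF-beta and which is mutated in geleophysic dysplasia, was the 1 tested ADAMTS-like gene. Its levels were 2.69, 6.36 and 3.25 FPKM under vehicle against 3.4, 7.18 and 3.16 FPKM under D-serine. Replicate 2 was high in both groups, and the groups overlapped (log2 difference 0.13 ± 0.34 SE). Its direction is not settled: the difference was -0.19 without D-serine replicate 2.

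Mmp23 was the 1 metalloproteinase gene that reached the minimum. It encodes an unusual membrane-anchored member on chromosome 4 (155650655 to 155653384, minus strand), and it stood at 1.99, 1.18 and 4.02 FPKM under vehicle against 1.84, 3.51 and 2.84 FPKM under D-serine. The groups overlapped, and vehicle replicates 2 and 3 were its lowest and highest libraries (log2 difference 0.20 with a 95% interval from -0.54 to 0.94). With an estimated 12 to 40 fragments in a library, Mmp23 carries large counting error. Its direction turned, to -0.080, without vehicle replicate 2.

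**Figure D2:**
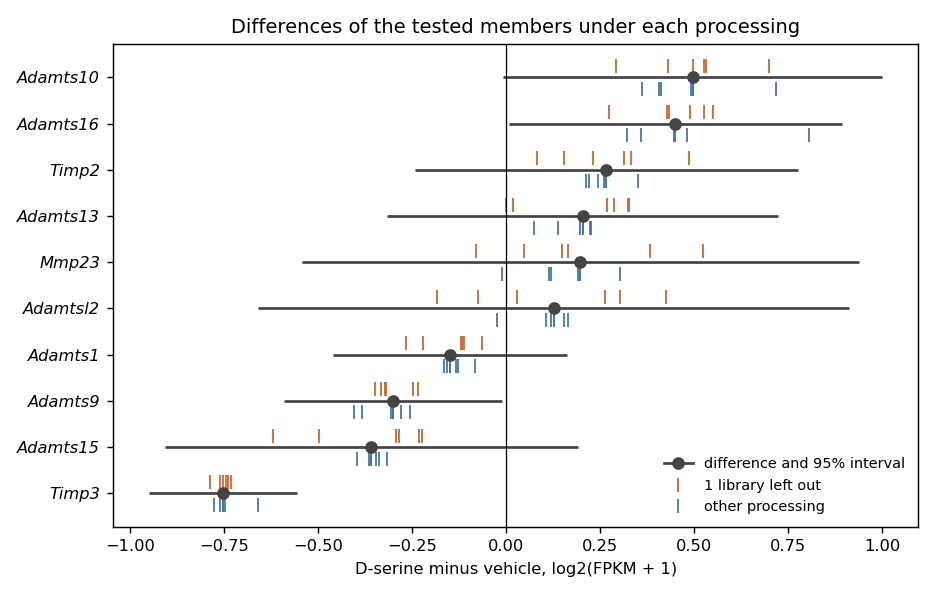
Log2 differences, D-serine minus vehicle on the scale of log2(FPKM + 1), of the 10 tested genes, with the 95% interval from limma as a line. Orange ticks above each line are the 6 fits without 1 library and blue ticks below are the other alternatives, and those of Timp3 stay between -0.79 and -0.66.

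Among the 10 tested genes 6 were higher and 4 lower by their log2 differences, where 48.9% of all tested genes were higher, and the median was 0.16 beside -0.0078 over all tested genes. This median was -0.059 when D-serine replicate 2 was left out, and in the other 5 fits without 1 library it lay between 0.0078 (vehicle replicate 2 left out) and 0.29 (D-serine replicate 1 left out), so its sign rests on a single library. For 4 of the 10 the groups did not overlap, higher for Adamts10 and Adamts16 and lower for Timp3 and Adamts9, where 35.8% of all tested genes had groups that did not overlap (16.5% higher, 19.4% lower). D-serine replicate 2 held the highest of the 6 values for 5 of the 10 genes, and for 26.4% of all tested genes. In depth this library was the lowest, at 0.836 of vehicle replicate 1. Adamts16, which reached the minimum only through the D-serine libraries, is counted in all these figures of the 10 genes. Mmp14, with means of 1.04 FPKM under vehicle and 0.921 FPKM under D-serine, is not.

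**Figure D3:**
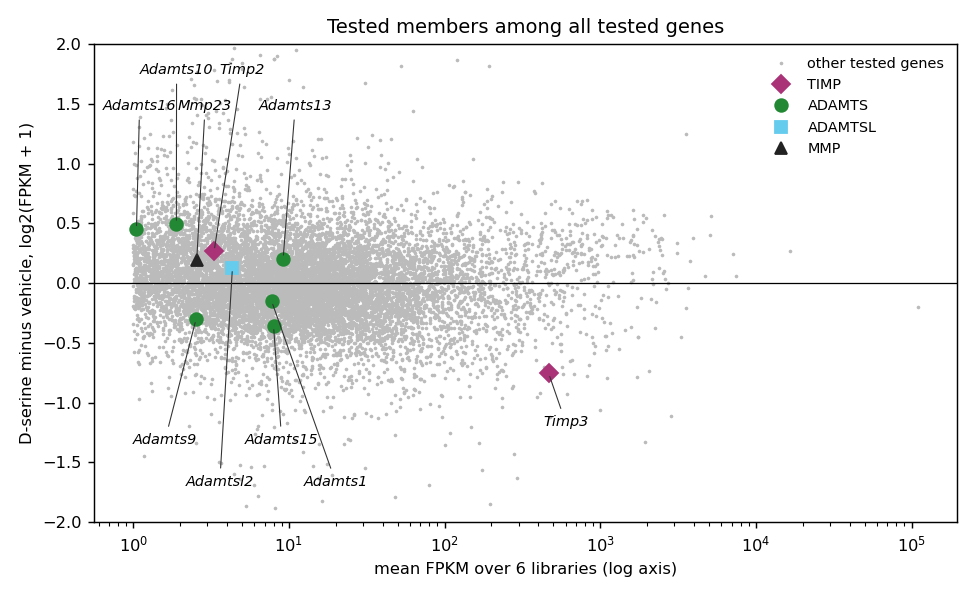
Log2 difference of D-serine minus vehicle against the mean FPKM (log axis) for the tested genes, with the 10 described here marked by family. The axis ends at 2 on either side, which leaves out 70 other genes, and Timp3 (-0.75) is the marked gene farthest from 0.

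Below the minimum, 31 genes were detected, 14 of them metalloproteinases. Mmp14, the membrane enzyme that activates Mmp2, was just outside it, at 0.975, 0.975 and 1.18 FPKM under vehicle against 0.794, 1.17 and 0.804 FPKM under D-serine. The groups overlapped. Adamts16, at a mean of 1.05 FPKM against 0.982 for Mmp14, was just inside. Mmp11 (stromelysin-3) had a mean of 0.629 FPKM and the membrane enzyme Mmp15 one of 0.470 FPKM. The gelatinase Mmp2 was at 0.299, 0.274 and 0.207 FPKM under vehicle against 0.251, 0.715 and 0.339 FPKM under D-serine, with the highest value in D-serine replicate 2. The other gelatinase, Mmp9, was listed at 0 in 3 libraries and did not exceed 0.121 FPKM in the others. Mmp17, a membrane enzyme held by a lipid anchor, was at 0.161, 0.0338 and 0.143 FPKM under vehicle against 0.145, 0.540 and 0.439 FPKM under D-serine. Mmp28 (epilysin) was high in D-serine replicate 1 alone, at 1.04 FPKM against 0.0513 to 0.215 FPKM in the other 5 libraries. Matrilysin (Mmp7), whose messenger is often induced in injured tubules, was listed at 0 in 3 libraries and stood between 0.166 and 0.189 FPKM in the other 3, which is 1 depth-corrected step in each. Mmp3, Mmp12, Mmp13, Mmp16, Mmp19 and Mmp24 were listed at 0 in 2 to 4 libraries, and their highest value in any library was 0.381 FPKM, of Mmp13.

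Among the 15 low ADAMTS and ADAMTS-like genes, Adamts7 and Adamtsl5 had groups that did not overlap. Adamts7, a protease that cuts cartilage oligomeric matrix protein, stood at 0.124, 0.238 and 0.183 FPKM under vehicle against 0.623, 0.419 and 0.304 FPKM under D-serine. Adamtsl5, a microfibril-associated protein, stood at 0.0749, 0.117 and 0.0828 FPKM under vehicle against 0.293, 0.391 and 0.245 FPKM under D-serine. With no filter on low values, limma gave an adjusted p of 0.16 for Adamts7 and 0.11 for Adamtsl5, where 0.0516% of 17438 genes passed, so neither passed. Their estimated fragments ran from 5.1 to 23 in a library for Adamts7 and from 2.4 to 10 for Adamtsl5. With Timp4, 3 of the 31 low genes had every D-serine library above the vehicle ones and 0 had every one below. Among all 5701 detected genes under 1 FPKM these shares were 10.5% and 2.53%, and 63.3% of these genes had the higher mean with D-serine, as had 21 of the 31.

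The versican and aggrecan proteases Adamts5 and Adamts4 are relatives with different levels here. Adamts5 was at 0.389, 0.239 and 0.639 FPKM under vehicle against 0.646, 1.19 and 0.517 FPKM under D-serine, with overlapping groups. Adamts4 reached at most 0.135 FPKM in any library. Adamts6 had a mean of 0.815 FPKM, with its highest value, 1.29 FPKM, in D-serine replicate 2. The procollagen-processing proteases Adamts2, Adamts3 and Adamts14 had means of 0.131, 0.180 and 0.0834 FPKM. Adamtsl3 and Adamtsl4 were near 0.281 and 0.320 FPKM, and Adamtsl1 had a mean of 0.0977 FPKM. Adamts8, Adamts12, Adamts17 and Adamts20 had means from 0.00639 to 0.0695 FPKM, and Adamts12 and Adamts17 were at 0 throughout the D-serine group and in 1 vehicle library each. The remaining 2 vehicle libraries held 1 or 2 steps of each gene, so no difference was detectable at this depth. In 14 of the 31 low genes every value was a whole multiple of the smallest depth-corrected value, within 0.05 of a step, and for 12 of them no library exceeded 4 steps.

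**Figure D4:**
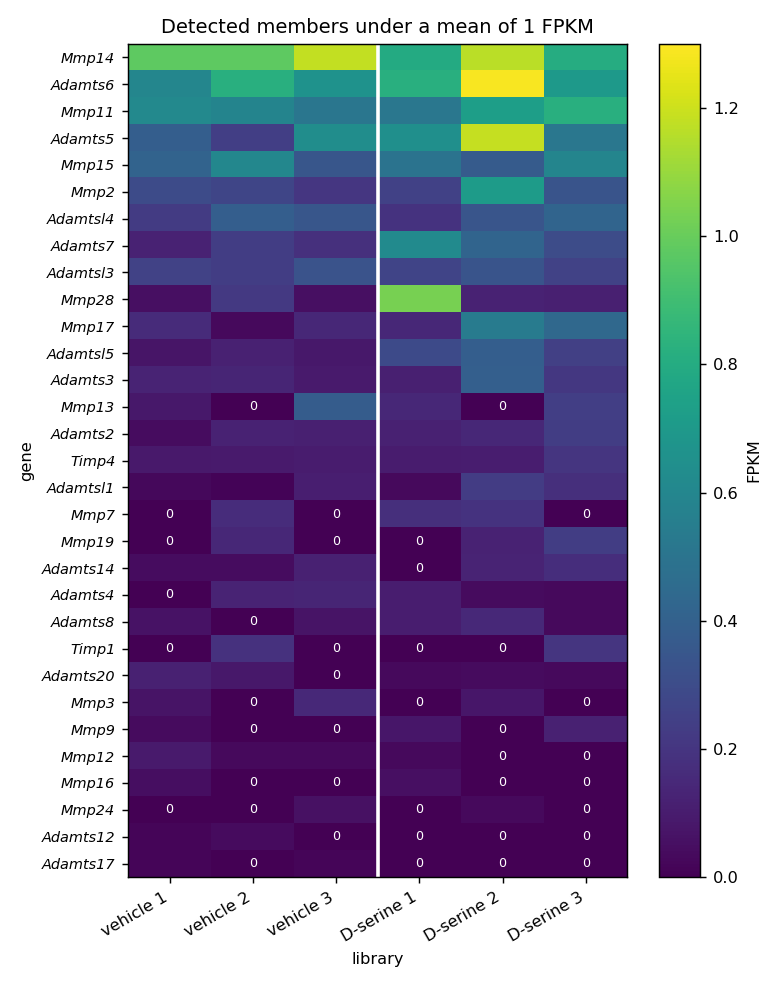
FPKM of the 31 detected genes with a mean under 1 FPKM (rows, by falling mean) in the 6 libraries (columns), by colour from 0 to 1.3 FPKM, with 0 printed where a gene is listed at 0. Mmp28 stands out in D-serine replicate 1 at 1.04 FPKM, and Adamts6 and Adamts5 in D-serine replicate 2 at 1.29 and 1.19 FPKM.

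A further 10 genes were listed at 0 in all 6 libraries: Adamts18, Adamts19, Mmp1a, Mmp1b, Mmp8, Mmp10, Mmp20, Mmp21, Mmp25 and Mmp27. Of all 24346 genes, 28.4% were listed at 0 throughout. The group includes collagenases (Mmp1a, Mmp1b, Mmp8), the stromelysin Mmp10 and the enamel protease Mmp20. An exact 0 can also be a failed estimate of the quantification tool, so it is given as listed at 0.

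Of the 10, 6 belong to the Mmp gene cluster of chromosome 9 (7272514 to 7699585, mm10), which holds 10 Mmp genes in 427 kb. The other 4, Mmp3, Mmp7, Mmp12 and Mmp13, reached at most 0.381 FPKM. The upstream windows of the cluster hold a motif not found in those of the other genes. TGANTCA, a wider form of the site known for AP-1 (Fos and Jun), was searched on both strands, where it reads the same. It stands in the 250 bases before a start site of 8 of the 10 cluster genes and of 0 of the 26 other genes with a RefSeq promoter, and in 6.75% of all upstream windows in the table. The first 2 figures count genes with a match in any window, and the share counts windows. Mmp7 and Mmp12 have 2 windows each, with the match in 1. The cluster genes are neighbours of 1 family, so they are not independent cases. For 7 of the 8 genes the match is printed in capitals with 12 bases on each side, on the strand of the gene. In these 7 it begins 35 to 93 bases before the start site, and its middle base is G or C, as in the known AP-1 site. The match in the other gene is not printed, and it counts only under the wider form. On GRCm38.p6 they lie at chr9:7464056-7464086 (Mmp1a), chr9:7388101-7388131 (Mmp1b, minus strand), chr9:7445764-7445794 (Mmp3), chr9:7692015-7692045 (Mmp7), chr9:7502267-7502297 (Mmp10), chr9:7347318-7347348 (Mmp12) and chr9:7272467-7272497 (Mmp13).
Mmp1a: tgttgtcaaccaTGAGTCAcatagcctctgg
Mmp1b: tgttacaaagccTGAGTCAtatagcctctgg
Mmp3: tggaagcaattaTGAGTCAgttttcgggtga
Mmp7: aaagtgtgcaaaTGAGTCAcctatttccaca
Mmp10: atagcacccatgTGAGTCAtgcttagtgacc
Mmp12: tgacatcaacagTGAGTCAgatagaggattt
Mmp13: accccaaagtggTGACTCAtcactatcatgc
By contrast, GGGCGG, the GC box known for Sp1, searched on both strands, stands in 0 of the 10 cluster genes and 20 of the 26 others (32.7% of all windows). The cluster windows hold 37.2 to 53.2% G and C and the others 53.6 to 80%. These are matches of letters, and no binding was measured.

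Summed over families, the proteases and their relatives did not separate the groups. The ADAMTS sum was 30.6, 36.4 and 31.0 FPKM under vehicle against 29.5, 37.2 and 31.7 FPKM under D-serine. The Mmp sum was 4.83, 4.20 and 7.08 FPKM under vehicle against 5.56, 7.58 and 6.55 FPKM under D-serine, and the ADAMTS-like sum was 4.84 ± 2.02 and 5.64 ± 2.46 FPKM (SD, n = 3 each). Timp3 thus stood at 13.8 ± 1.52 times the summed proteases and ADAMTS-like genes under vehicle against 7.85 ± 1.33 times with D-serine, in ranges that do not overlap. This ratio is of messenger levels per length and moves with Timp3 itself.

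Of 25 listed regulators, activators and partners of these enzymes, 14 were tested: 8 were higher, 6 were lower and their median log2 difference was 0.059. In limma 0 rose and 1 fell, with 4 of the 14 at an unadjusted p under 0.05, near the 27.7% of all tested genes. The 1 was Pzp, a broad-range inhibitor of the alpha-2-macroglobulin family that traps proteases of all classes. It stood at 50.4, 47.2 and 42.1 FPKM under vehicle against 18.5, 13.3 and 14.4 FPKM under D-serine. The groups lay far apart, and the log2 difference was -1.54 ± 0.14, its SE (limma adjusted p = 0.015). It passed in the fits without a D-serine library and not in those without vehicle replicates 1, 2 or 3 (adjusted p = 0.13, 0.12 and 0.10), nor with the replicate number as a block (adjusted p = 0.082). Of the ADAM sheddases, the membrane-bound relatives, 5 of 13 were tested, with 0 called and 1 at an unadjusted p under 0.05 in limma, Adam9 (31.9 ± 1.35 and 21.9 ± 5.51 FPKM, adjusted p = 0.11). Adam10 was at 15.7 and 14.3 FPKM and Adam11 at 1.52 and 1.27 FPKM, both with overlapping groups.

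The astacins, another family of zinc proteases, include the meprins of the proximal tubule brush border. Of 8 listed astacins and procollagen enhancers, 3 were tested, 0 passed in limma and all 3 had an unadjusted p under 0.05 (27.7% of all tested genes). Mep1a, encoding meprin alpha, stood at 755, 756 and 647 FPKM under vehicle against 453, 322 and 514 FPKM under D-serine. Mep1b, encoding meprin beta, was at 71.9 ± 11.8 and 38.7 ± 13.7 FPKM. For both genes each D-serine library was below each vehicle library, with log2 differences of -0.76 and -0.92 (limma adjusted p = 0.074 and 0.085). Without D-serine replicate 3 both had an adjusted p under the threshold (0.048 and 0.043), in a fit that called 437 of all genes in place of 9. The other 5 fits without 1 library gave 0.11 to 0.25 for Mep1a and 0.13 to 0.27 for Mep1b. Pcolce, the enhancer of procollagen C-proteinase, was at 60.4 ± 6.52 and 87.3 ± 16.6 FPKM (adjusted p = 0.100).

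Of the matrix substrates of these proteases, 16 of 21 tested genes were higher and 5 lower, where 48.9% of all tested genes were higher. The median log2 difference was 0.19, beside -0.0078 over all tested genes. In limma 0 were called and 5 of the 21 had an unadjusted p under 0.05, beside 27.7% of all tested genes. Col1a1, Col1a2, Col3a1, Dcn and Lum of this list are also among the fibroblast markers below, so the lists are not independent. Col4a4 (24.4 ± 1.70 and 18.1 ± 0.314 FPKM) and Col4a3 (43.3 ± 3.04 and 32.7 ± 3.02 FPKM), the basement membrane chains of glomerulus and some tubules, had D-serine libraries below the vehicle libraries. Eln, encoding elastin, had them above (1.23 ± 0.359 and 2.72 ± 0.813 FPKM). For these 3 genes the limma adjusted p ran from 0.071 to 0.091. Of 19 transcription factors and signals that act upstream of protease genes 15 were tested, with 10 higher and 5 lower (median log2 difference 0.039). In limma 0 were called and, beside 27.7% of all tested genes, 1 of the 15 had an unadjusted p under 0.05. That gene was Fos, at 2.92, 5.29 and 4.04 FPKM under vehicle against 5.53, 12.4 and 7.51 FPKM under D-serine (limma adjusted p = 0.11). Jun was at 19.9 ± 5.72 and 30.5 ± 9.17 FPKM and Etv4 at 1.31 ± 0.311 and 2.99 ± 1.68 FPKM, both with overlapping groups.

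Markers of kidney cell types were read in the same fit, where 0 of them passed in limma. Kap, an androgen-regulated gene of the mouse proximal tubule, made up 11.6 to 15.8% of the FPKM total of a library, and the tubule markers were abundant in all 6. All 7 tested markers of proximal tubule segment S3 were lower with D-serine (5 at an unadjusted p under 0.05, beside 27.7% of all tested genes, and 0 called in limma), and the 8 listed markers summed to 838 to 1082 FPKM under vehicle against 407.5 to 619 FPKM under D-serine. Those of S1 and S2 (8 of 10 lower, 1 at an unadjusted p under 0.05) summed to 3158 to 3731 and 2773 to 3442 FPKM. Of the markers of fibroblasts, pericytes and smooth muscle, 8 of 10 tested were higher, where 48.9% of all tested genes were higher. Of these 10, 3 had an unadjusted p under 0.05 in limma, near the 27.7% of all tested genes. The 12 listed summed to 30.7 to 40.5 FPKM with vehicle and to 43.5 to 79.5 FPKM with D-serine, the highest in D-serine replicate 2. Endothelial markers (8 of 10 higher, 2 at an unadjusted p under 0.05) summed to 33.6 to 58.4 and 49.1 to 71.3 FPKM. Podocyte markers (5 of 6 higher, 1 at an unadjusted p under 0.05) summed to 12.6 to 54.5 and 30.7 to 37.9 FPKM. Collecting duct principal cell markers (7 of 7 higher, 6 at an unadjusted p under 0.05) summed to 457 to 614 and 676 to 1015 FPKM, and those of intercalated cells (6 of 6 higher, 4 at an unadjusted p under 0.05) to 154 to 182 and 189 to 249 FPKM. Markers of the distal convoluted tubule (5 of 5 higher, 2 at an unadjusted p under 0.05) summed to 578 to 752 and 759.7 to 892 FPKM, and those of the thick ascending limb (4 of 6 lower, 1 at an unadjusted p under 0.05) to 1564 to 1798 and 1026 to 1581 FPKM. None of the markers in these 9 lists was listed at 0 in all 6 libraries. Leukocyte markers (5 of 7 higher) summed to 14.7 to 22.1 and 15.2 to 26.2 FPKM, with the T cell marker Cd3e at 0 throughout. Among them 1 higher and 1 lower gene had an unadjusted p under 0.05 in limma. Markers of parietal epithelium and injured tubule (3 of 5 higher, 2 at an unadjusted p under 0.05 in limma) summed to 160 to 185 and 172 to 261 FPKM. Those of adipocytes in perirenal fat (1 of 5 tested, higher, at an unadjusted p under 0.05) summed to 11.3 to 16.4 and 15.9 to 23.7 FPKM, with Plin1 and Lep at 0 throughout. Timp3, the meprins and the S3 sum were lower, and the sums of distal convoluted tubule and collecting duct markers higher, in all 3 D-serine libraries. Differences that separate the groups coincide in these libraries by design. D-serine replicate 2, where Adamts10 and Adamts16 were highest, had the highest fibroblast sum. This library also had the highest sums of distal convoluted tubule and principal cell markers (892 and 1015 FPKM), and the highest value for 26.4% of all tested genes. The part of cell types in these differences was not tested.

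**Figure D5:**
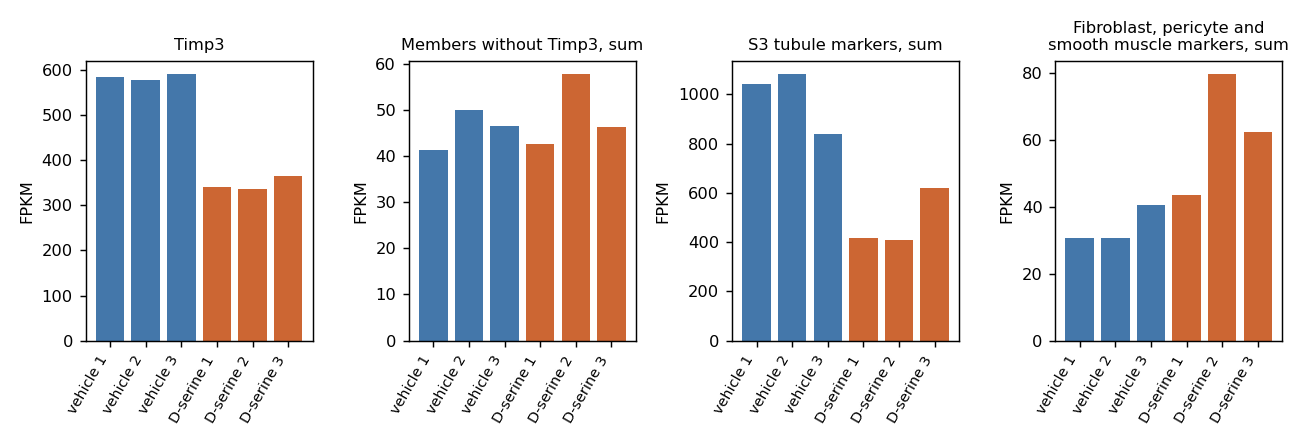
FPKM in each of the 6 libraries (blue vehicle, orange D-serine) of Timp3, of the other 50 genes summed, of the 8 S3 proximal tubule markers summed, and of the 12 markers of fibroblasts, pericytes and smooth muscle summed. Timp3 and the S3 sum are lower in all 3 D-serine libraries, while the sum of the other genes overlaps between the groups (41.4 to 50.0 and 42.6 to 57.8 FPKM).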

How the data were processed

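Kidney messenger RNA of 6 libraries (3 vehicle, 3 D-serine) was extracted with TRIzol and made into TruSeq stranded libraries, per the labels' protocols. The authors used TopHat2 2.0.13, Bowtie2 2.2.3, SAMtools 0.1.19 and Cufflinks 2.2.1 on mm10, per the submitters' processing notes, and deposited 1 table of FPKM values per sample. The sources used here do not give the gene annotation or the strand setting.

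Genes averaging at least 1 FPKM were tested with limma 3.58.1 in R 4.3.3 (mean-variance trend) on log2(FPKM + 1), D-serine against vehicle, two-sided, with Benjamini-Hochberg adjustment over all 11737 genes and a threshold of 0.05. The pseudocount understates differences of low genes. With 3 libraries a group, no exact permutation test of a single gene goes below a two-sided p of 0.1. The scripts were tested on simulated data.

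Read totals are not part of the tables. The spacing of low values gave relative depths of 1, 0.954 and 0.902 for vehicle and 0.893, 0.836 and 0.882 for D-serine (replicates 1 to 3), and 54 genes with 1 transcript gave rough totals of 6420000 to 7680000 fragments, or 14.0 fragments per FPKM of a 2 kb transcript. No interval was computed from these. Estimated fragments use the longest transcript.

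Positions came from GENCODE M21 (51 of 51 genes matched) and promoters from RefSeq (36 of 51). A single sequence window and the count of a motif are not reported here. The genes, lists and rules were chosen with earlier results of these data known. The rule named every tested gene of the families, those under the minimum whose groups did not overlap, the rest by range or count, and of each list of related genes those called or else the 3 with the smallest p. The alternatives were another pseudocount, another minimum or none, median-of-ratios or quantile scaling, no trend, library weights, the replicate number as a block, small RNA genes left out, a length and GC trend removed, and each library left out in turn.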

Additional observations from a re-analysis of the deposited data

How the results depend on the processing

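The fall of Timp3 kept its direction in all 16 alternatives. It no longer passed with no filter on low values (log2 difference -0.75, adjusted p = 0.059), without the mean-variance trend (-0.75, 0.070) and after removal of a trend with length and GC content (-0.66, 0.051), nor in 5 of the 6 fits without 1 library, all 6 of which gave -0.79 to -0.73. The count of called genes of the families was then 0 in place of 1, and from 0 to 1 without 1 library. The labels number replicates 1 to 3 in both groups, and the deviations of same-numbered libraries correlated at -0.070, 0.0031 and 0.067. Those of libraries with other numbers ran from -0.0822 to 0.0825. Over all genes these values show no pairing by number, but they cannot exclude a pairing that acts on some genes. With the replicate block Timp3 was at -0.75 (adjusted p = 0.13), with 0 of the families' genes and 2 of all genes called, and Pzp at -1.54 (adjusted p = 0.082). The count over all genes, 9, was 171 with a pseudocount of 0.1, 132 with a minimum of 5 FPKM, 269 with library weights, 332 without small RNA genes and 2 to 437 without 1 library. No scaling moved the median of all genes by over 0.1. The median of the tested genes of the families turned to -0.25 with a minimum of 5 FPKM, which leaves 4 of them, and ran from -0.059 to 0.29 without 1 library (SD over the 3 D-serine libraries 0.32). Directions turned for Adamts13 (-0.0014 to 0.33 without 1 library, negative without D-serine replicate 2), Adamtsl2 (-0.024 with library weights, -0.19 to 0.42 without 1 library, negative without vehicle replicate 1 or D-serine replicate 2), Mmp23 (-0.012 without the length and GC trend, -0.080 to 0.52 without 1 library, negative without vehicle replicate 2) and Adam11 (-0.49 to 0.075 without 1 library, positive without vehicle or D-serine replicate 3), none of them called in any fit. The cause of these changes was not tested. Most genes under 1 FPKM rest on few fragments, so their values carry large counting error.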

Other observations

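Like Timp3 in Syn3, Timp1 and Timp4 lie inside synapsin genes on the opposite strand. Timp1 (chromosome X, 20870166 to 20874735, mm10) lies inside Syn1, with 0 shared exon bases, and Timp4 (chromosome 6, 115241892 to 115252205) inside Syn2, with 90. Syn1, a gene known from neurons, was listed at 0 in all 3 vehicle libraries and stood at 0.0399, 0.171 and 0.0404 FPKM with D-serine. These values are near 0, and 10.5% of detected genes under 1 FPKM had every D-serine library above the vehicle ones. Syn2 was at 2.57, 3.30 and 2.15 FPKM under vehicle against 3.97, 3.68 and 2.46 FPKM under D-serine, in overlapping ranges. Timp2 (chromosome 11, 118301069 to 118355740) is not inside such a gene in the annotation.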
